A study of Mus musculus with 4 samples.

Results

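The transcripts of 10 regulators of germ cells and of trophoblast, the outer lineage that builds the placenta, were followed by total RNA sequencing in mouse embryonic stem (ES) cells and in cells derived from them. The genes were Tfap2c, Prdm1, Dppa3, Kit, Dazl, Ddx4, Cdx2, Elf5, Eomes and Ascl2, which are 10 of the 47633 genes in the deposited table. They were picked by name with earlier values of these same libraries in view, so their levels are given as a description, with no test. All 10 symbols matched a single identifier each. Every library came from cells of the 129S2/SvPas mouse strain. The derived cells were 1 library kept for 2 days without leukaemia inhibitory factor (LIF, the cytokine that holds ES cells undifferentiated) and 1 library labelled embryoid body (the EB-labelled library), kept for 5 days without LIF. The reference was 2 libraries of ES cells grown with LIF in serum on mitomycin C-treated embryonic fibroblasts of C57/BL6 mice. No label names separate cultures behind the ES libraries, so the spread between them may be technical, and neither derived condition has a replicate.

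Primordial germ cells, the precursors of eggs and sperm, are set aside in the early mouse embryo under BMP and WNT signals. The transcription factors PRDM1, PRDM14 and TFAP2C then repress somatic genes and restart a programme close to that of pluripotent cells. DPPA3 protects the maternal genome from demethylation in the zygote, KIT is the receptor through which germ cells receive survival signals, and the RNA-binding proteins DAZL and DDX4 appear later, as germ cells settle in the gonad. In trophoblast, CDX2, EOMES and ELF5 maintain the stem cells together with TFAP2C, and ASCL2 is needed for the spongiotrophoblast of the placenta.

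Values are FPKM, fragments normalised to transcript length and to library size, as the authors deposited them. Depth was estimated at 18060000 fragments after LIF withdrawal and 26450000 in the EB-labelled library, against 31450000 in ES 1 and 26450000 in ES 2. In the LIF withdrawal library 44.7% of the FPKM sum fell on its 10 highest genes, against 17.4% in the EB-labelled library and 9.8% to 15.5% in ES cells. Pluripotency transcripts stayed abundant in every library: the summed level of 7 such genes was 1512 FPKM after LIF withdrawal, 1598 FPKM in the EB-labelled library and 1638 to 1647 FPKM in ES cells. The summed level of 10 germ layer genes was 9.77, 5.25 and 11.1 to 12.4 FPKM in that order. Nes, a neural progenitor gene, and Pax6 carried most of that sum. Nes was at 6.49 FPKM after LIF withdrawal and 2.11 FPKM in the EB-labelled library, against 7.11 and 6.92 FPKM in ES cells. Pax6 was at 0.792 and 1.52 FPKM in the derived libraries, against 2.435 and 2.205 FPKM. The other 8 stayed below 1 FPKM in every library, so these genes hardly test the embryoid body label. Fibroblast transcripts also moved with the conditions. Of 16 feeder markers, 0 were listed at 0 in either derived library, and their summed level was 198 FPKM after LIF withdrawal, 74.0 FPKM in the EB-labelled library, and 56.8 and 56.0 FPKM in ES 1 and ES 2. In bulk RNA of this kind, a change in the number of cells that express a gene cannot be told apart from a change in its level per cell.

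The 10 genes covered a wide range of levels. Kit was the highest in every library and averaged 24.7 FPKM in ES cells, a mean above that of 74.1% of the tested genes when taken over all 4 libraries (23.3 FPKM). Ddx4, Prdm1 and Tfap2c followed at ES means of 7.43, 4.07 and 3.30 FPKM, and Eomes at 1.32 FPKM. Cdx2, Dazl, Ascl2, Dppa3 and Elf5 had ES means below 1 FPKM, at 0.901, 0.598, 0.597, 0.36 and 0.0752 FPKM. Dazl and Ascl2, neighbours in that order, did not differ beyond the spread of the ES libraries. Over the 4 libraries Tfap2c spanned 13.3-fold between its lowest and highest value, whereas Dazl spanned 1.44-fold and Ascl2 1.22-fold. Elf5 and Dppa3 were each listed at 0 in 1 library and Cdx2 was under the level of 3 fragments in 1, so no span is given for them.

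**Figure D1:**
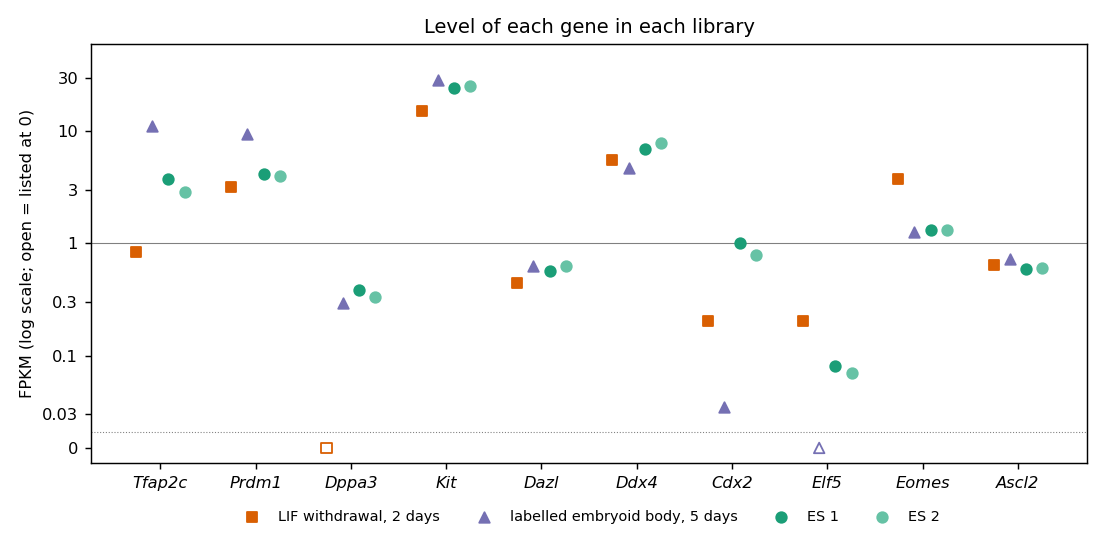
FPKM of each of the 10 genes (log axis, open symbols at the bottom for genes listed at 0) after 2 days without LIF, in the EB-labelled library and in ES 1 and ES 2; the grey line marks 1 FPKM. Tfap2c ran from 0.836 to 11.1 FPKM with the ES libraries in between, and the points of Ascl2 and Dazl lay close together.

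Tfap2c, which encodes the transcription factor AP-2 gamma of germ cells and trophoblast, went opposite ways in the derived libraries. It was at 0.836 FPKM after LIF withdrawal and at 11.1 FPKM in the EB-labelled library, against 3.73 and 2.88 FPKM in ES 1 and ES 2. Both derived values lay outside the ES range. Relative to the ES mean of 3.30 ± 0.597 FPKM (SD, n = 2), the level was 0.253 of it after LIF withdrawal and 3.36-fold it in the EB-labelled library. On the log2(FPKM + 1) scale these differences were -1.22 and 1.5. The gene occupies chr2:172549593-172558622 on the plus strand of mm10 (ENSMUSG00000028640.11) with no gene on the opposite strand there in the annotation (GENCODE M21). The estimated depth put 56 fragments behind the value after LIF withdrawal and 1079 behind that of the EB-labelled library, against 431 and 280 in ES 1 and ES 2.

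Other AP-2 genes were lower. Tfap2a was at 0.650 FPKM after LIF withdrawal and 0.333 FPKM in the EB-labelled library, against 0.583 and 0.529 FPKM in ES cells, and Tfap2e at 0.337, 0.283, 0.222 and 0.168 FPKM in that order. None of the 4 other family members reached 1 FPKM in any library, and Tfap2d was listed at 0 in all. Tfap2c thus made up 40.8% of the summed FPKM of the family after LIF withdrawal and 94.5% in the EB-labelled library, against 81.9% in ES 1 and 80.5% in ES 2.

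Prdm1, which encodes the repressor BLIMP1 that directs cells to the germ line, was at 3.20 FPKM after LIF withdrawal and 9.50 FPKM in the EB-labelled library, against 4.14 and 3.99 FPKM in ES cells. The level in the EB-labelled library was over 2-fold that of each ES library, at 2.34-fold the ES mean of 4.07 ± 0.112 FPKM (SD, n = 2). After LIF withdrawal the ratio was 0.786. The ratio of Tfap2c to Prdm1 FPKM was 0.261 after LIF withdrawal and 1.17 in the EB-labelled library, against 0.899 and 0.723 in ES cells. The partner gene Prdm14 (named after its values were seen) was at 5.54 and 8.82 FPKM in the derived libraries, against 4.81 and 5.02 FPKM in ES cells. Its log2 difference in the EB-labelled library was 0.73, below the 2-fold threshold (limma adjusted p = 0.139 over all genes, 0.0325 in the strand-clear set defined below).

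The promoter of Prdm1 is shown because this gene and Tfap2c were both more than 2-fold higher in the EB-labelled library. Windows were found for 8 of the 10 genes, without Tfap2c and Dppa3. Promoter windows here are RefSeq sequences of the build GRCm38.p6, from 250 bases before to 50 bases after an annotated start, on the gene's own strand. A match to any of 3 motifs, searched on both strands, is in capitals: GCCNNNGGC, a palindrome bound by AP-2 factors, GCGGGA, the core bound by E2F6, and CACGTG, the E-box bound by MAX and MGA. Of 32851 windows in the table, 16.6% held the first, 20% the second and 7.15% the third. The Prdm1 window, chr10:44458699-44458998 on the minus strand, held none of them, which says only that these letters are not in this window. It held 20 CpG dinucleotides, more than 73.5% of all windows.
Prdm1: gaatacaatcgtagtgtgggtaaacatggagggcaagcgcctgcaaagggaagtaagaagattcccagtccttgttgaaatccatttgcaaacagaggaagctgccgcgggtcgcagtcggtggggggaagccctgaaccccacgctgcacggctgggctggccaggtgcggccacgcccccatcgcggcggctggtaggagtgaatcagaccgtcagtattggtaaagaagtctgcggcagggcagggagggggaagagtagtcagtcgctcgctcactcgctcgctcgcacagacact

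Dppa3, also called Stella, lay near the detection limit. It was listed at 0 after LIF withdrawal and at 0.295 FPKM in the EB-labelled library, against 0.384 and 0.336 FPKM in ES 1 and ES 2. Its exons cover 892 nucleotides, so those values correspond to about 7 fragments in the EB-labelled library, against 11 and 8 in ES cells. Had 3 fragments been seen after LIF withdrawal, the level would have been 0.186 FPKM. The 95% Poisson interval of a count of 0 in that library reached 0.229 FPKM and overlapped the single-library intervals of ES 1 (0.196 to 0.702 FPKM) and ES 2 (0.146 to 0.668 FPKM). Set against the 19 fragments of both ES libraries together, the ratio after LIF withdrawal had a 95% counting interval of 0 to 0.687. For the EB-labelled library the ratio was 0.806 (0.286 to 2). These intervals cover counting error alone, not the spread between cultures. Its processed pseudogene Dppa3-ps was listed at 0 in all libraries. Genes at 10 FPKM or more in 3 libraries and listed at 0 in the remaining library were few: 4 for LIF withdrawal, 0 for the EB-labelled library, and 1 and 3 for ES 1 and ES 2, none of them protein-coding.

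Kit, the receptor tyrosine kinase of germ cells and blood progenitors, was at 15.3 FPKM after LIF withdrawal and 28.5 FPKM in the EB-labelled library, against 24.2 and 25.3 FPKM in ES cells. The lower value after LIF withdrawal was 0.619 of the ES mean of 24.7 ± 0.801 FPKM (SD, n = 2), and the EB-labelled library was 1.15-fold above it. Neither difference reached 2-fold. With 2464 and 6717 fragments behind the derived values, against 6773 and 5963 in ES 1 and ES 2, counting error was small for this gene. Its ligand gene Kitl (named after its values were seen) was at 5.03 and 3.77 FPKM in the derived libraries, against 3.905 and 4.09 FPKM in ES cells. The ratio of receptor to ligand FPKM was 3.04 after LIF withdrawal and 7.56 in the EB-labelled library, against 6.19 and 6.18 in ES cells. The Kit promoter is shown because this most abundant gene is 1 of 2, among the 8 with a window, that hold the AP-2 palindrome, with Cdx2 as the other. The window, chr5:75574737-75575036 on the plus strand, held that palindrome from position -134 (counted from 0 at the annotated start) and the E2F6 core from -117 and -96. A second annotated start of Kit, 4 bases further on, has a nearly identical window.
Kit: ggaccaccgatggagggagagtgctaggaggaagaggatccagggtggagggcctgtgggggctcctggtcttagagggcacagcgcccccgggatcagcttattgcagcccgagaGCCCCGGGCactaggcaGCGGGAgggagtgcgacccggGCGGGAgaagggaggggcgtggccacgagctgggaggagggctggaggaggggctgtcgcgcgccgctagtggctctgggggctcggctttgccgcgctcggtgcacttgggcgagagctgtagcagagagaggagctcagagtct

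The later germ-cell genes Ddx4 and Dazl differed in level. Ddx4, which encodes the RNA helicase VASA of the germ granule, was at 5.53 FPKM after LIF withdrawal and 4.74 FPKM in the EB-labelled library, against 6.997 and 7.87 FPKM in ES cells. Both derived values lay below the ES range, at 0.744 and 0.637 of the ES mean, and neither differed by 2-fold. Dazl, a translational activator needed for gametes to form, was at 0.440 and 0.634 FPKM in the derived libraries, against 0.566 and 0.629 FPKM in ES cells. The counting intervals of all its values overlapped, from 0.293 to 0.621 FPKM after LIF withdrawal and 0.488 to 0.809 FPKM in the EB-labelled library, against 0.440 to 0.718 FPKM in ES 1 and 0.488 to 0.809 FPKM in ES 2. The Ddx4 level was 12.6 times that of Dazl after LIF withdrawal and 7.48 times in the EB-labelled library, against 12.4 and 12.5 times in ES cells.

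Promoters of these germ-line genes are known to be repressed in somatic and pluripotent cells. DNA methylation and a complex that contains E2F6, MAX and MGA repress them, and for that reason both windows are shown. Ddx4 was still at 6.997 and 7.87 FPKM in the ES cells here. The Ddx4 window, chr13:112652261-112652560 on the minus strand, held the E2F6 core from position -136 and the E-box from -29, and its 38 CpG dinucleotides exceeded those of 95% of all windows. The Dazl window, chr17:50293571-50293870 on the minus strand, held none of the 3 motifs and had 28 CpG dinucleotides, more than 85.8% of windows.
Ddx4: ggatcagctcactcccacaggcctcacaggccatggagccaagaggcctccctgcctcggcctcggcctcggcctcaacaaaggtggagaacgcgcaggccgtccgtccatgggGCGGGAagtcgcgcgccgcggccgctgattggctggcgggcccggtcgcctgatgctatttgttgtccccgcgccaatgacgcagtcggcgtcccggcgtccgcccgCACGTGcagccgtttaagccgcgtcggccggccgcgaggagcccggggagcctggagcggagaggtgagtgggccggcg
Dazl: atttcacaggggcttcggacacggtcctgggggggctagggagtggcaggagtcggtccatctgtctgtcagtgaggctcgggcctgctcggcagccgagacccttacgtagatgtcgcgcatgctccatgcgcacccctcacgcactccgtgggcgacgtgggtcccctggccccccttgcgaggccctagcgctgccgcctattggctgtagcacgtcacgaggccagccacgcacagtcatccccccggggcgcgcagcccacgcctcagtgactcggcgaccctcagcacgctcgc

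The trophoblast factors did not move together. Cdx2, the homeobox gene that starts trophectoderm, was at 0.205 FPKM after LIF withdrawal and 0.0345 FPKM in the EB-labelled library, against 1.015 and 0.786 FPKM in ES cells. Both derived libraries lay below both ES libraries. The estimated fragments were 8 and 2 in the derived libraries, against 72 and 47 in ES cells. Measured on those fragments, the ratio to ES cells was 0.216 after LIF withdrawal (95% counting interval 0.0909 to 0.439). In the EB-labelled library it was 0.0368 (0.0044 to 0.136). These intervals cover counting error alone and are no test, since the gene was picked with earlier values in view. Cdx2 also reached 1 FPKM, the filter used below for gene counts, in ES 1 alone. T (brachyury), a T-box gene of the primitive streak that was named after its values were seen, was at 0.558 and 0.127 FPKM in the derived libraries, against 1.003 and 1.14 FPKM in ES cells. T reached 1 FPKM in the ES libraries alone, so as a tested gene it had to be lower in the derived libraries. The Cdx2 window, chr5:147307200-147307499 on the minus strand, is shown as the other window with an AP-2 palindrome, here from position -16.
Cdx2: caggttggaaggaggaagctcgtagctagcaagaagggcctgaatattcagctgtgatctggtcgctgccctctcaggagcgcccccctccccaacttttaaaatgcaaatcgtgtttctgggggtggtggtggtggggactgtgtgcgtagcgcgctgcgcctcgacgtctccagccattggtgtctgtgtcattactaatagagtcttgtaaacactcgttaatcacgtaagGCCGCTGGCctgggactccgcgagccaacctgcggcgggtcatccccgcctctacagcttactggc

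Eomes, a T-box gene of trophoblast stem cells and of early endoderm and mesoderm, was higher after LIF withdrawal and near its ES level in the other derived library. It was at 3.72 FPKM after LIF withdrawal and 1.26 FPKM in the EB-labelled library, against 1.31 and 1.32 FPKM in ES cells. The first value was 2.82-fold the ES mean of 1.32 ± 0.00631 FPKM (SD, n = 2) and the second 0.955 of it. About 279 fragments lay behind the value after LIF withdrawal, against 171 and 145 in ES 1 and ES 2. The Eomes gene, chr9:118478212-118486132 on the plus strand of mm10, is overlapped on the opposite strand by the non-coding Gm33460. The table holds no row matched to that transcript and the labels do not state the strand setting of the counting, so the part of antisense reads in the Eomes value was not tested.

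Elf5 and Ascl2 completed the trophoblast group at low levels. Elf5, an ETS-family factor that marks committed trophoblast, was at 0.202 FPKM after LIF withdrawal and listed at 0 in the EB-labelled library, against 0.0807 and 0.0697 FPKM in ES cells. These values stand for about 21 and 0 fragments in the derived libraries, against 15 and 11 in ES cells. The counting interval after LIF withdrawal, 0.122 to 0.302 FPKM, overlapped those of ES 1 (0.0454 to 0.134 FPKM) and ES 2 (0.0353 to 0.127 FPKM) at its lower end. Set against both ES libraries together, the ratio of fragments after LIF withdrawal was 2.59 (95% counting interval 1.39 to 4.79). For the EB-labelled library 3 fragments would have given 0.0193 FPKM. The upper end of the interval of a count of 0 there, 0.0237 FPKM, lay below both ES intervals. Elf5 has 7 annotated transcripts, so its fragments may be overstated and these intervals too narrow. They cover counting error alone and are no test of a difference between conditions. Ascl2, a basic helix-loop-helix gene that is imprinted in the placenta, was at 0.645 and 0.720 FPKM in the derived libraries, against 0.592 and 0.602 FPKM in ES cells. Its intervals overlapped in all libraries, so no difference of Ascl2 was detectable at this depth. In sum over the 4 trophoblast factors the level was 4.77 FPKM after LIF withdrawal and 2.01 FPKM in the EB-labelled library, against 3.0 and 2.78 FPKM in ES cells. Eomes alone made up 3.72 FPKM of the sum after LIF withdrawal, while Cdx2 was below its ES values there. The lower sum in the EB-labelled library came mostly from Cdx2, so neither sum describes a shared change of the group.

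**Figure D2:**
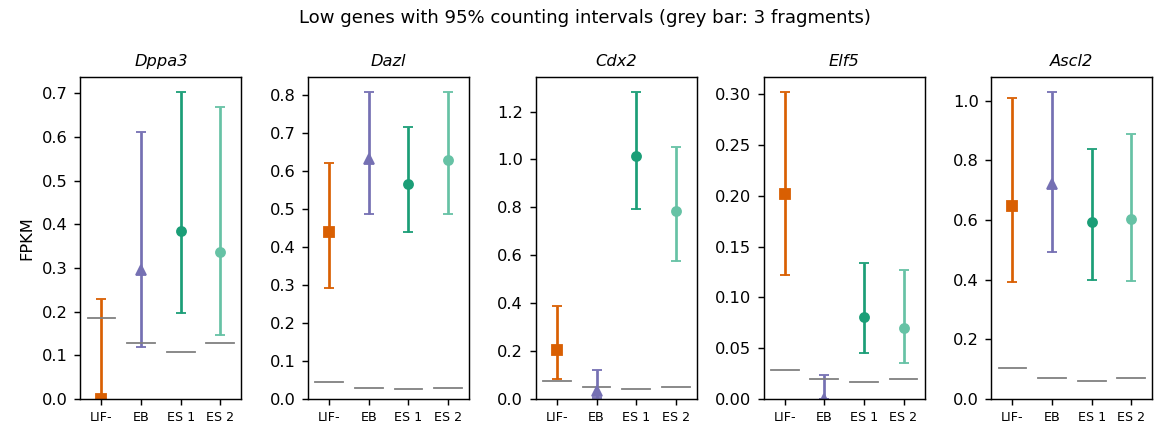
FPKM of the 5 lowest genes (linear axes, a separate scale for each gene) after 2 days without LIF (LIF-), in the EB-labelled library (EB) and in ES 1 and ES 2, with 95% Poisson intervals of the estimated fragments; grey bars mark the level of 3 fragments. The intervals of Dazl and Ascl2 overlap in all libraries, and for Cdx2 both derived intervals lie below both ES intervals. Intervals cover counting error alone.

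Set side by side, 6 of the 10 genes had a level of 1 FPKM or above in some library, the filter used for all gene counts. Cdx2 passed it through ES 1 alone, so a gene of that kind had to be lower elsewhere. Dppa3, Dazl, Elf5 and Ascl2 did not pass. By a size rule without a test, a level 2-fold or more above both ES libraries or as far below both, Eomes was higher and Tfap2c and Cdx2 lower after LIF withdrawal. Over all 15676 genes at the filter, 15.3% passed this rule after LIF withdrawal (12.4% higher, 2.88% lower). In the EB-labelled library Tfap2c and Prdm1 were higher and Cdx2 was lower by that rule, where 8.01% of all genes passed (4.78% higher, 3.23% lower). Tfap2c, Prdm1, Kit and Eomes lay on opposite sides of both ES libraries in the derived libraries, as 27.4% of all genes did. Since the genes were chosen with these values in view, nothing is read from these counts. Tfap2c was the only 1 of the 10 genes that passed the rule in opposite directions, which 169 of the 15676 genes did (1.08%), 32 of them (0.204%) lower after LIF withdrawal and higher in the EB-labelled library. The comparisons share their ES libraries.

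**Figure D3:**
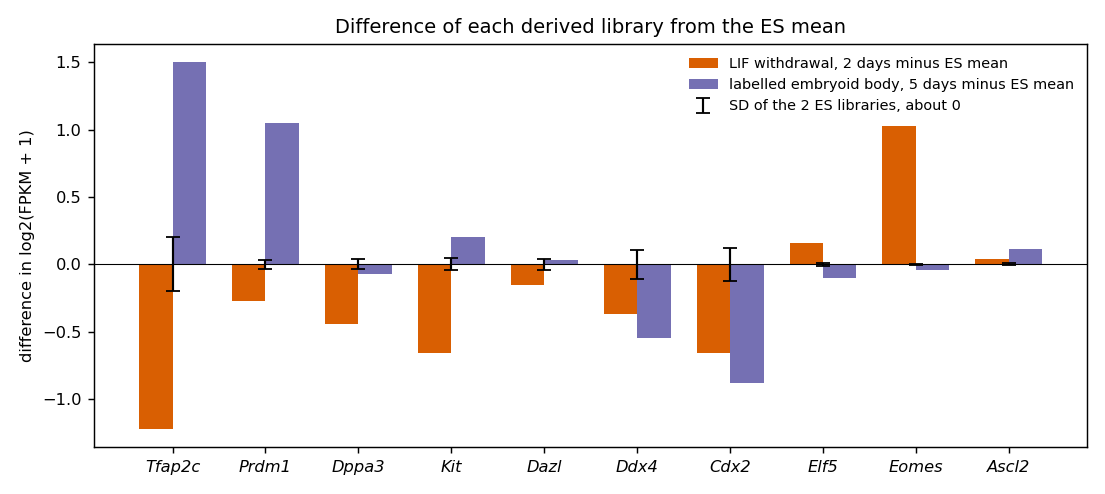
Difference of each derived library from the mean of the ES libraries in log2(FPKM + 1), with black bars for the SD of the 2 ES libraries about 0. Tfap2c reached -1.22 after LIF withdrawal and 1.5 in the EB-labelled library, and Eomes 1.03 after LIF withdrawal.

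Genes of the wider germ-cell and trophoblast programmes were taken from 10 lists, with limma (a linear model over all tested genes, Benjamini-Hochberg adjusted p under 0.05 and at least 1 on the log2 scale). Limma called 7.67% of all genes after LIF withdrawal and 0.396% in the EB-labelled library. The pair of ES libraries gives the model its 1 residual degree of freedom, and each lone derived library was assumed to vary as they do. Calls are also given for a strand-clear set of 7175 protein-coding or long non-coding genes with at least 1000 nucleotides of exons and no gene on the opposite strand. There limma called 3.07% and 2.3% of genes in the 2 comparisons. An unadjusted p under 0.05 was common over all tested genes, at 37.2% of them after LIF withdrawal and 27.7% in the EB-labelled library. That is the background for counts at that threshold below, which are not given for every list and comparison. The set holds 8 of the 10 genes described above, without Eomes and Dppa3.

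Of 16 genes of germ-cell specification, 15 were tested and Ifitm1 fell after LIF withdrawal. Ifitm1, which encodes an interferon-induced membrane protein also known from nascent germ cells, was at 42.15 FPKM, against 121 and 116 FPKM in ES cells (log2 difference -1.47, SE 0.05, limma adjusted p = 0.0262). Klf2, a pluripotency factor named after its values were seen, was the other call in the strand-clear set, at 14.2 FPKM, against 39.7 and 36.2 FPKM (log2 difference -1.35, limma adjusted p = 0.0166 there and 0.0566 over all genes). The list's median log2 difference was -0.18, beside 0.04 over all tested genes. Limma called none over all genes in the EB-labelled library, with 8 of 15 at an unadjusted p under 0.05 (27.7% over all genes) and a median of 0.23, beside -0.01 over all genes. Ifitm1 was at 294 FPKM there and rose in the strand-clear set (log2 difference 1.30, limma adjusted p = 0.0185), the 1 call among its 8 members of that set. Dppa5a, a pluripotency and germ-cell transcript, was at 805 and 1136 FPKM in the derived libraries, against 569 ± 11.4 FPKM in ES cells (SD, n = 2), and Sall4 at 136 and 157 FPKM, against 158 ± 2.49 FPKM. Lin28a, named after its values were seen, was at 48.1 and 32.1 FPKM in the derived libraries, against 76.2 and 77.3 FPKM in ES cells.

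Among 12 genes of the signals that induce germ cells, 8 were tested and limma called 0 in either comparison, with 2 of 8 at an unadjusted p under 0.05 after LIF withdrawal and 3 of 8 in the EB-labelled library. None was called in the strand-clear set either. By the size rule only T passed, lower in the EB-labelled library, where 3.23% of all genes were lower. T passed the filter through the ES libraries alone. Bmpr1a and Smad4, the BMP receptor and the shared SMAD, were at 36.8 and 29.3 FPKM after LIF withdrawal and 30.2 and 27.6 FPKM in the EB-labelled library, against 34.9 ± 1.65 and 30.6 ± 0.882 FPKM in ES cells (SD, n = 2).

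Later germ-cell, piRNA and meiosis genes were 33 in number, of which 22 were tested. Whether fitted with all genes or with strand-clear genes alone, limma called 0 of them in each comparison, with 9 of 22 at an unadjusted p under 0.05 in each comparison, beside 37.2% and 27.7% of all genes. The medians in those comparisons were 0.08 and -0.15, beside 0.04 and -0.01 over all genes. Tex19.1 and Tdrd12, both expressed in pluripotent cells as well as in the germ line, were at 27.7 and 15.8 FPKM after LIF withdrawal and 30.7 and 18.5 FPKM in the EB-labelled library, against 27.0 and 21.4 FPKM in ES cells (means, n = 2). By the size rule Sycp1, Tex11, Smc1b and Zcwpw1 were higher and Tdrd1 lower after LIF withdrawal. Of all genes, 12.4% were higher and 2.88% lower by that rule there. Smc1b passed the filter through that library alone. Those that were higher all lie outside the strand-clear set, so the strand of their reads is uncertain. Tdrd1, Smc1b and Mov10l1 were lower by the size rule in the EB-labelled library, where 3.23% of all genes were lower. Tdrd1 and Mov10l1 passed the filter through the ES libraries alone, so they had to be lower in the derived libraries. Smc1b was below 1 FPKM in the EB-labelled library and in both ES libraries.

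The repressors of germ-line genes were measured beside their targets. All 21 genes of this list were tested, and limma called 0 in either comparison, with all genes or strand-clear genes alone, and left 6 of 21 at an unadjusted p under 0.05 in each. None passed the size rule. Mga and Rnf2, subunits of the E2F6 complex, were at 158 and 120 FPKM after LIF withdrawal and 123 and 115 FPKM in the EB-labelled library, against 138.5 ± 13.7 and 105 ± 1.61 FPKM in ES cells (SD, n = 2). The medians were 0.01 and -0.04, beside 0.04 and -0.01 over all tested genes.

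Of 21 further genes of trophoblast stem cells and trophectoderm, 14 were tested. Fgfr2 and Id2 fell after LIF withdrawal. Fgfr2, the receptor for the FGF4 signal that maintains trophoblast stem cells, was at 2.46 FPKM, against 11.1 and 10.4 FPKM in ES cells (log2 difference -1.76, SE 0.07, limma adjusted p = 0.0383). Id2, which blocks DNA binding by helix-loop-helix partners, was at 18.7 FPKM, against 54.1 and 54.5 FPKM (log2 difference -1.49, SE 0.02, limma adjusted p = 0.00953). Fgfr2 overlaps a gene on the opposite strand and lies outside the strand-clear set, where Id2 was called. The list's median was 0.26, beside 0.04 over all tested genes, and Gata3 and Krt7 stayed below 1 FPKM in every library. Limma called 0 of the 14 in the EB-labelled library, with 5 at an unadjusted p under 0.05 and 0 of 8 called in the strand-clear set. Zfp281 was at 46.4 FPKM there, against 44.0 ± 0.503 FPKM in ES cells (SD, n = 2), and Id2 at 28.4 FPKM, against 54.3 ± 0.297 FPKM.

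Markers of differentiated trophoblast were mostly silent, with 7 of 17 genes tested and Tpbpa, Prl3b1 and Ctsq listed at 0 in all 4 libraries. Rtl1, an imprinted placental gene, was at 4.28 FPKM after LIF withdrawal, against 0.0338 and 0.0171 FPKM in ES cells. Limma called it (log2 difference 2.36, adjusted p = 0.0038), but it passed the filter through that library alone, so it had to differ, and with no filter the adjusted p was 0.0504. It also overlaps genes on the opposite strand. The proliferins Prl2c3 and Prl2c2, placental hormones, were at 28.7 and 15.5 FPKM in that library, against 0.930 ± 0.457 and 0.331 ± 0.400 FPKM in ES cells (SD, n = 2). Both were called in the strand-clear set only. Prl2c2 passed the filter through the derived libraries alone, so it had to differ. The near-identical sequences of Prl2c3 and Prl2c2 leave the division of reads between them uncertain. In the EB-labelled library Peg10, an imprinted gene of placental development, was at 57.1 FPKM, against 126 ± 1.21 FPKM in ES cells (log2 difference -1.13, limma adjusted p = 0.0185 among strand-clear genes and 0.117 among all). Cited2 was at 31.5 FPKM there, against 22.3 ± 2.81 FPKM. Over all genes limma called 0 of the 7 in that comparison, with 2 at an unadjusted p under 0.05.

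Several fibroblast transcripts were higher in the derived libraries beside these values. Of 14 feeder markers tested, Postn, S100a4, Dcn and Col5a2 rose after LIF withdrawal by limma, to 22.7, 73.2, 6.68 and 28.4 FPKM, against 2.59, 13.3, 0.679 and 7.68 FPKM in ES cells (means, n = 2). S100a4 lies outside the strand-clear set, and Dcn passed the filter through the derived libraries alone. The adjusted p ranged from 0.0192 to 0.0397, and the list's median was 0.74. Limma called 0 of the 14 in the EB-labelled library over all genes, with 9 at an unadjusted p under 0.05, but 4 of 9 rose in the strand-clear set. These were Dcn, at 11.1 FPKM, and Col6a3, Col3a1 and Pdgfrb, which are named after their values were seen. Col6a3, at 8.675 FPKM, passed the filter through the EB-labelled library alone, so it had to be higher there. Col5a2 and S100a4 were at 3.44 and 8.64 FPKM there. Limma called 0 of 7 pluripotency genes in either comparison, with 2 of 7 at an unadjusted p under 0.05 after LIF withdrawal (37.2% over all genes) and 5 of 7 in the EB-labelled library (27.7% over all genes). Pou5f1, which encodes OCT4, was at 455 and 461 FPKM in the derived libraries, against 489 and 472 FPKM in ES cells. The part of fibroblast RNA in the levels of Kit, Eomes or any other of the 10 genes, or of Prl2c3 and Prl2c2, was not tested.

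**Figure D4:**
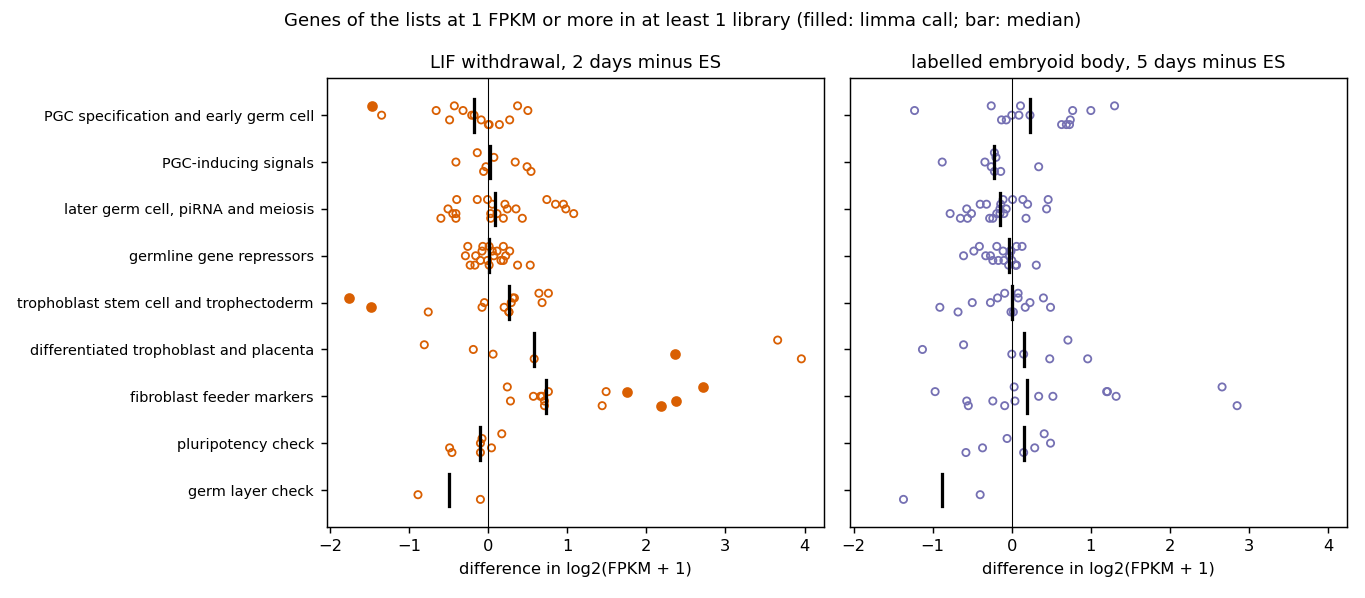
Difference in log2(FPKM + 1) from ES cells for tested genes of 9 lists, left after 2 days without LIF and right in the EB-labelled library; filled points are limma calls over all genes and bars are list medians. Of 110 points, the filled ones are 8 on the left, 4 of them feeder markers, and 0 on the right. Over all tested genes the share called was 7.67% and 0.396% in that order.

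Genes with the most similar pattern were sought for Tfap2c, Prdm1, Cdx2 and Eomes, by the Euclidean distance between log2(FPKM + 1) values centred on the ES mean, over the 4 libraries. Nearest to Tfap2c were Ifitm1 at a distance of 0.35, Krt17 at 0.49 and Trh at 0.52. Krt17 had 1.26 FPKM after LIF withdrawal and 8.33 FPKM in the EB-labelled library, against 3.33 and 2.74 FPKM in ES cells, and Trh had 36.2 and 231 FPKM, against 66.8 and 63.6 FPKM. Prdm1 had Arhgap22, Ldhb and Gstm1 as neighbours at 0.12 to 0.13. For Cdx2 they were Prok2, Dcaf12l1 and Lockd at 0.09 to 0.12. The nearest to Eomes, all at 0.04, were Bcas3os1, Muc15 and Dnmt3l-ps1, each listed at 0 in all but the LIF withdrawal library, where they had 1.04, 1.03 and 1.02 FPKM. With the pseudocount of 1, a gene that goes to 1 FPKM from 0 and one that goes to 3.72 FPKM from 1.32 FPKM have nearly the same difference.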

How the data were processed

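Total RNA libraries of 4 samples were used: LIF withdrawal (1), labelled embryoid body (1) and ES cells (2). The authors deposited 1 FPKM value per gene and library. Trimmomatic 0.36, STAR, Cufflinks and the build mm10 are named per the submitters' processing notes, while the strand setting, annotation release and each tool's role are not stated there. In FPKM a rise of a few dominant transcripts can lower the values of the rest. The FPKM sums were unequal here, at 865343 after LIF withdrawal and 594026 in the EB-labelled library, against 582093 and 528718 in ES 1 and ES 2. The median-of-ratios factors, which compare typical gene levels between libraries, were 1.023, 0.9772, 0.9943 and 1.008 in that order.

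Of 47633 identifiers, 47219 matched GENCODE mouse release M21 without their version. The 15676 genes whose highest value was 1 FPKM or above were fitted on log2(FPKM + 1) with limma 3.58.1 (R 4.3.3), moderated with a trend, with all 4 libraries in 1 model. Such differences understate changes of low genes. A call needed a difference of 1 or more in size and an adjusted p (Benjamini-Hochberg) under 0.05. The median difference over tested genes was 0.04 and -0.01 in the LIF withdrawal and embryoid body comparisons, and values were not rescaled. Data were simulated with noise drawn from the ES pair and known changes in the LIF withdrawal library. There the fit over strand-clear genes recovered most changes with few false calls, and the fit over all genes made no call, true or false. On the measured values the fit over all genes did call genes in both comparisons, so the simulation differs from the data for that fit. How much a missing call says there is not known. For both fits, every simulated library was given the noise of the ES pair. Changes were put only in genes above a set ES level. That a derived library varies as the ES libraries do was thus assumed and not tested, also for the strand-clear calls.

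Depth came from single-transcript genes of at least 3000 nucleotides: FPKM was multiplied by exon length, and the commonest low product, in log2 bins of 0.05, was read as 1 fragment. Fragments of a gene are that depth times its FPKM and total exon length, taken over all its annotated transcripts. For a gene read mainly from shorter transcripts this overstates the fragments, which makes intervals too narrow and floors too low. Intervals (95%, exact Poisson, or Clopper-Pearson for ratios) and floors of 3 fragments cover counting error only.

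The 10 genes and all lists were chosen with earlier results of these data known. Besides the 10, a rule named up to 4 called genes per list and comparison by size of difference, or the 2 of highest mean FPKM where none was called, and the 3 nearest in pattern. Alternatives were other pseudocounts, filters, scaling, folds, no trend, strand-clear genes and single ES libraries. Other software was scipy 1.17.1 and numpy 2.4.6 under Python 3.11.15, with figures from matplotlib 3.10.9.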

Additional observations from a re-analysis of the deposited data

Results flagged for a closer look

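Several transcripts lay on opposite sides of both ES libraries in the derived libraries, a difference that was not tested, since each derived condition has 1 library and both are set against the same ES libraries. At the filter, 27.4% of all genes did so. The values here are those of the EB-labelled library minus LIF withdrawal on the log2(FPKM + 1) scale. Tfap2c was higher in the EB-labelled library by 2.72, Prdm1 by 1.32, Kit by 0.86 and Dazl by 0.18. Elf5 and Eomes were lower there, with differences of -0.26 and -1.06. For Dazl and Elf5, which did not reach 1 FPKM, counting intervals overlapped between some of the libraries concerned. The interval of Eomes in the EB-labelled library, 1.05 to 1.48 FPKM, also overlapped those of ES 1 (1.12 to 1.52 FPKM) and ES 2 (1.11 to 1.55 FPKM). Among the list genes chosen by rule, Ifitm1 differed by 2.77 and Fgfr2 by 2.16, both higher in the EB-labelled library. The feeder markers S100a4 and Col5a2 differed by -2.94 and -2.73, and Mga, Tfap2a and Bmpr1a by -0.36, -0.31 and -0.27, all lower there.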

How the results depend on the processing

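No paired analysis was possible because the derived groups have 1 library each and their labels carry no replicate number. Of the 10 genes, 3 passed the size rule after LIF withdrawal. The number was 5 with no filter, which added Elf5 (higher) and Dppa3 (lower), and 1 (Tfap2c) with the filter at 5 FPKM. In the EB-labelled library it was 3, and 1 (Cdx2) with the rule at 3-fold, since Tfap2c was under 3-fold from ES 1. Without ES replicate 1 or ES replicate 2 the number was 2 to 3 in either comparison, and Cdx2 left the tested genes without ES replicate 1. Each of the log2 differences of genes that passed the rule kept its sign under all 5 alternatives tried for it.

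Over all genes, those past the size rule after LIF withdrawal numbered 2402, against 7296 with no filter, 669 with the filter at 5 FPKM, 489 in the strand-clear set and 3808 with the rule at 1.5-fold. Without 1 ES library they were 2871 to 3313. In the EB-labelled library they numbered 1256, against 5136, 359, 427 and 2560 under those settings, 655 at 3-fold and 1695 to 2306 without 1 ES library, the higher number being that without ES replicate 1. Limma calls after LIF withdrawal were 1203, against 786 with no filter, 395 with the filter at 5 FPKM and 220 in the strand-clear set. For the EB-labelled library they were 62, against 131 with a pseudocount of 0.1, 41 with the filter at 5 FPKM, 0 without a trend and 165 in the strand-clear set. List genes called after LIF withdrawal were 8 of the 110 tested, beside 7.67% of all tested genes. With no filter they were 2 (Id2 and Col5a2). In the EB-labelled library they were 0, beside 0.396% of all tested genes, and 1 (Dcn) with the filter at 5 FPKM. In the strand-clear set they were 7 in that library, beside 2.3% of all genes of the set. The cause was not tested, beyond fewer or more genes being fitted. Sall4 changed sign only with rescaling by median-of-ratios factors, to 0.03 in the EB-labelled library. Depth limits Dppa3, Dazl, Elf5 and Ascl2, whose values rest on at most 68 estimated fragments a library.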
